A study of Mus musculus with 6 samples.

Results

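The genes described here encode subunits of complexes II to V of the mitochondrial inner membrane, together with cytochrome c, the small protein that carries electrons from complex III to complex IV. A list of 40 gene symbols was matched to every probe set that the platform annotation gives exactly 1 symbol, and 38 of the genes were found, with 83 of the 45037 probe sets. They were 4 genes of complex II, 9 of complex III, 10 of the 11 listed for complex IV, 14 of the 15 listed for complex V, and Cycs for cytochrome c. Cox7b had no probe set of its own. Atp5f1, the b subunit of complex V, had none under that symbol, and probe sets that the annotation calls Atp5pb, which RefSeq gives as another name of the gene, were not counted as members.

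RNA came from neurospheres, floating clusters of neural stem cells and progenitors, which were grown for 7 days from the walls of the lateral ventricles of female mice aged 84 days. There were 3 arrays from Ts1Cje mice, kept on a C57BL/6 background, and 3 from disomic C57BL/6 littermates, each labelled as a separate biological replicate. Ts1Cje mice carry an extra copy of the distal end of chromosome 16, moved onto the end of chromosome 12, and the copy of Sod1 at the break is not functional, so the model triples only some of the genes that are tripled in Down syndrome and also has a rearranged chromosome. Levels are log2 intensities of probe sets, as deposited. M is the mean of the Ts1Cje arrays minus the mean of the disomic arrays, so that an M above 0 means a higher level in Ts1Cje, and A is the mean over all 6 arrays. A probe set with A above 5 was taken as expressed.

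Complexes II, III and IV are parts of the respiratory chain. Complex II, succinate dehydrogenase, is also an enzyme of the citric acid cycle and passes electrons from succinate to ubiquinone. Complex III, cytochrome bc1, passes them on to cytochrome c and pumps protons, and complex IV, cytochrome c oxidase, gives them to oxygen and pumps protons as well. Complex V, ATP synthase, lets the protons flow back through a ring in the membrane and uses the rotation to make ATP in its F1 head. All subunits of complex II and most subunits of the other complexes are encoded in the nucleus, while a core of complexes III, IV and V comes from mitochondrial DNA. Neural stem cells are known for drawing heavily on glycolysis, and reliance on oxidative phosphorylation grows as their descendants become neurons.

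Members lay on 17 chromosomes, and 2 of them were on chromosome 16. Atp5o, which encodes the oligomycin sensitivity-conferring protein that joins the F1 head to the stator stalk, lies beyond Sod1 and so in the trisomic segment. Atp5j, which encodes coupling factor 6 of the same stalk, lies before Sod1 and is disomic. All 38 genes were expressed, through 70 probe sets. Of the markers fixed for the cell types, 9 of 10 for neural stem cells and astrocytes were expressed (Gfap was the exception), against 2 of 10 for neuroblasts and neurons, 5 of 7 annotated for oligodendrocytes, 0 of 8 for microglia, 0 of 6 for ependymal cells and 1 of 8 for vascular cells. In RNA from whole cultures, a change in the make-up of the cells and a change in RNA per cell cannot be told apart.

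Promoter sequences were taken from RefSeq (GRCm38.p6) for 30 of the 38 genes, as the 250 bases before and the 50 bases after each start site. Those of 3 genes are printed up to the start site, since Atp5o is the trisomic member, Atp5h one of the genes with the highest moderated t and Cox5b the gene with a moderated t below -4. Capitals mark a match to the core of the NRF1 motif (GCGCANGCGC) or of the ETS motif (CCGGAAG), which the GABP factor binds. Both strands were searched.
Atp5o promoter, chr16:91931631-91931880, minus strand: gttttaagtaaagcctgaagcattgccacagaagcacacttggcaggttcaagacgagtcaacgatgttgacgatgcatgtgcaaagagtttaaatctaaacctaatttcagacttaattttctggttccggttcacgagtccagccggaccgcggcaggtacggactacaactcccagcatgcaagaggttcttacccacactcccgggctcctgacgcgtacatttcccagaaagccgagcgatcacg
Atp5h promoter, chr11:115419920-115420169, minus strand: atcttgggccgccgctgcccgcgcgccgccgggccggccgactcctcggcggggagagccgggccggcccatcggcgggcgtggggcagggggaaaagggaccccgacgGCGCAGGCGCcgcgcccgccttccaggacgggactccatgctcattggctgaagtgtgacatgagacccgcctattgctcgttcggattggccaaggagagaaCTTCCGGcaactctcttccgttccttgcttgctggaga
Cox5b promoter, chr1:36691237-36691486, plus strand: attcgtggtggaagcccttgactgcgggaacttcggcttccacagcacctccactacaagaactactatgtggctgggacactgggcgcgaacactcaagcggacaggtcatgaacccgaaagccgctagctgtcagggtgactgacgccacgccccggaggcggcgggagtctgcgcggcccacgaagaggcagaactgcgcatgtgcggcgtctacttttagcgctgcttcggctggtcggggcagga

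The NRF1 core was present in the promoters of 10 of the 30 genes (33.3%), the ETS core in 12 (40.0%) and the core of the YY1 motif (AAGATGGCG) in 2 (6.67%). The shares among all 27025 genes with a promoter were 5.19%, 9.93% and 1.64%, and among the 7347 of those with an expressed probe set they were 13.4%, 22.4% and 4.23%. At least 1 of the cores was present in 19 of the 30 genes (63.3%) and in 35.5% of the expressed genes. The median GC content was 57% in the member promoters and 52.7% in all promoters. Matches of different motifs did not overlap in any member promoter. In Atp5h the NRF1 core began at position -141 and the ETS core at -38, counted from the start site, while in Atp5o the only match, an NRF1 core, began at position 10, outside the printed stretch. A start of Atp5j faces that of Gabpa, which encodes the ETS-domain subunit of GABP. An ETS and a YY1 core lay between them, at positions -61 and -88 from that Atp5j start. A further Atp5j start lay inside Gabpa, and its promoter held no match. Disomic members with an NRF1 core had a median M of 0.12 (9 genes) and those without one 0.16 (20 genes). For the ETS core the medians were 0.15 (12 genes) and 0.14 (17 genes). Such a match is a run of letters and not a shown binding site.

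Across the 70 expressed probe sets, differences between the genotypes were small and most ran upward, with M above 0 for 54 and below 0 for 16, while 51.6% of all 16371 expressed probe sets lay above 0. None passed an adjusted p of 0.05 in limma over all probe sets (background 0.00222%, which is 1 probe set), and every member had an adjusted p of 1. The moderated t is M over its standard error, with the error steadied by that of all probe sets. The steadying was slight here (prior degrees of freedom 0.336), so a small spread within 1 probe set could give a large t. A moderated t above 4 was reached by 3 member probe sets (4.29% of the 70), of Uqcrb, Atp5h and Atp5o, against a background of 0.965%, and a moderated t below -4 by 1 (1.43%), of Cox5b, against 0.812%. With limma's unadjusted p below 0.05 there were 3 higher (background 3.3%) and 2 lower (2.86%, background 2.88%, both of Cox5b), which is close to the background. All 3 Ts1Cje values lay above all 3 disomic values for 10 probe sets, or 14.3% of the 70 (background 5.53%), and below them for 3, or 4.29% (background 5.21%). These shares include the trisomic Atp5o. Of the 68 probe sets without it, 8 lay higher without overlap, 2 had a moderated t above 4 and 52 had M above 0. Probe sets of 1 gene share their RNA and are not separate evidence. The number with a moderated t above 4 was 9 without Ts1Cje replicate 2 and 1 without disomic replicate 2, and the number below -4 was 2 without Ts1Cje replicate 1. Shares over all expressed probe sets in those fits are not given here, so these counts have no background beside them.

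Each gene was then represented by its brightest probe set, and Atp5o was left out because of its 3 copies. The 37 disomic genes had a median M of 0.15, a fold of 1.11, with 31 above 0 and 6 below. For all 8947 expressed genes the median was 0.02, with 53.9% above 0, and for the 2173 genes with A above 10 it was 0.00, with 50.4% above 0. By complex the median M was 0.04 for complex II (2 of 4 genes above 0), 0.15 for complex III (8 of 9), 0.13 for complex IV (8 of 10) and 0.20 for complex V (12 of 13). These are descriptions of the list, without a test.

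**Figure D1:**
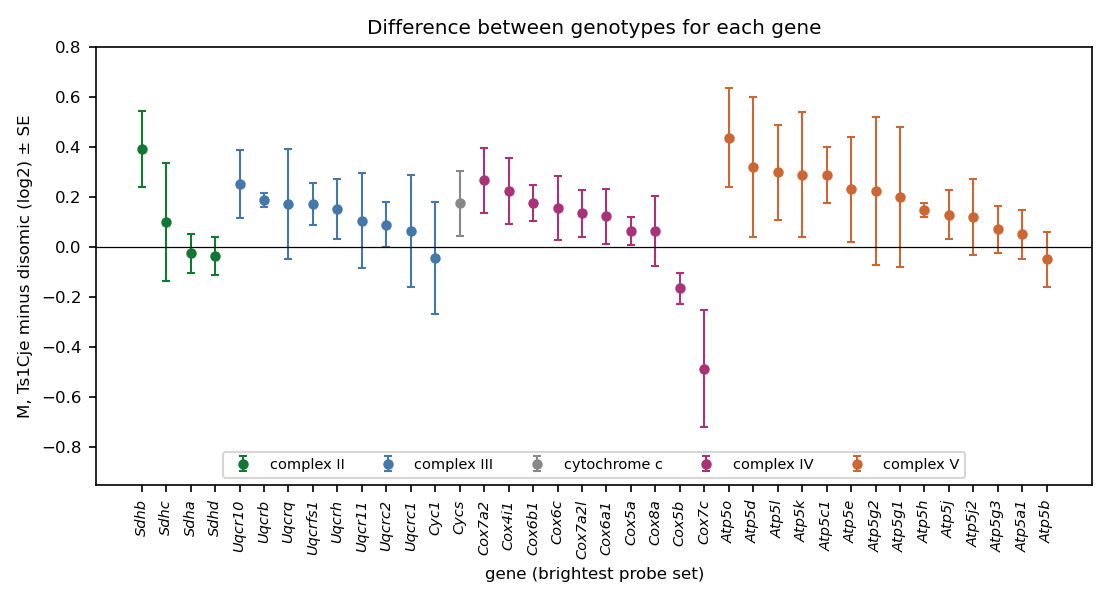
M, the Ts1Cje mean minus the disomic mean on the log2 scale, for the brightest probe set of each of the 38 genes, ordered within each complex (3 arrays per genotype). Points are M and bars are the standard error from limma, and only Cox7c, Cox5b, Atp5b, Cyc1, Sdhd and Sdha lay below 0.

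The upward shift was carried unequally by the 3 Ts1Cje arrays. The mean deviation of the 37 genes from their own means was 0.01, -0.15 and -0.05 on disomic arrays 1 to 3, and -0.05, -0.00 and 0.24 on Ts1Cje arrays 1 to 3. Ts1Cje replicates 1 and 2 thus lay within the range of the disomic arrays, and Ts1Cje replicate 3 lay above all others. It was the highest array for 29 of the 37 genes, among them 11 of the 13 of complex V, 8 of the 10 of complex IV, 7 of the 9 of complex III and 2 of the 4 of complex II. The other 8 genes, namely Sdha, Sdhd, Uqcrc1, Cyc1, Cox5b, Cox7c, Atp5a1 and Atp5b, were all highest on disomic replicate 1. Disomic replicate 2 was the lowest array for 16 genes. Shares of all expressed genes highest or lowest on each array were not computed, so these counts have no background beside them. On Ts1Cje replicate 3 the mean deviation was 0.02 over the 8947 expressed genes and -0.03 over the 2173 with A above 10. Without Ts1Cje replicate 3 the median M of the 37 genes was 0.04, with 26 above 0 and 11 below, and the medians by complex were -0.02 for complex II, 0.02 for complex III, 0.05 for complex IV and 0.05 for complex V. The median for complex II also lay below 0 without disomic replicate 2 (-0.02) or 3 (-0.01), and was 0.14 without Ts1Cje replicate 1 or disomic replicate 1, while that for complex V was 0.31 without Ts1Cje replicate 1 and 0.13 without disomic replicate 2.

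**Figure D2:**
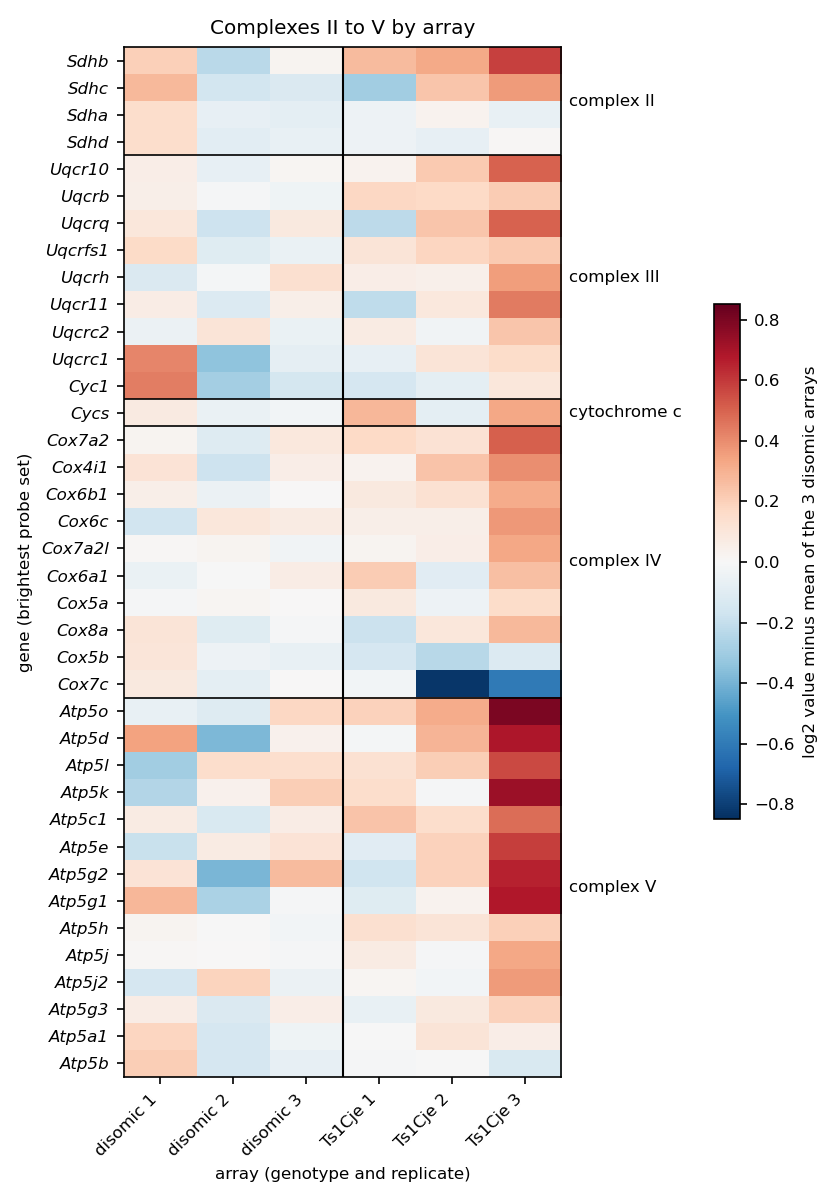
Log2 value of each of the 38 genes on each of the 6 arrays minus the mean of the 3 disomic arrays (brightest probe set, colour scale in log2 units), grouped by complex. The column of Ts1Cje replicate 3 is the warmest for most genes of complexes III, IV and V, and Cox7c and Cox5b run the other way.

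Several technical measures moved with the genotypes or with the same array. The 3′ minus 5′ difference of the actin control probe sets, which grows as RNA or labelled copies become shorter, was 1.53, 1.83 and 1.66 on the disomic arrays and 1.94, 1.87 and 2.26 on the Ts1Cje arrays, so that the groups did not overlap and Ts1Cje replicate 3 was the highest. For Gapdh it was 2.285, 2.088 and 2.157 against 2.296, 2.444 and 2.29. The mean of the 18S ribosomal RNA probe sets was 10.2, 11.3 and 11.7 against 12.0, 12.4 and 12.3. The groups did not overlap on either of these, though narrowly for Gapdh, and Ts1Cje replicate 2 was the highest on both. The part of these measures in the members' differences was not tested. Genes of cycling cells were lower on the Ts1Cje arrays, with a median M of -0.64 over 15 expressed genes, none above 0, and a mean deviation of 0.42, 0.21 and 0.38 against 0.04, -0.57 and -0.48. Of them, probe sets of Mcm7, Mcm2, Plk1 and Aurkb had a moderated t below -4. For the members the mean deviation on Ts1Cje arrays 1 to 3 was -0.05, -0.00 and 0.24. Among the Ts1Cje arrays, replicate 1 lay nearest the disomic mean for both the cycling genes and the members. Replicates 2 and 3 were close to each other for cycling genes and apart for the members. A link between the cycling genes and the members was not tested.

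In complex II, Sdhb, the iron-sulfur subunit that carries electrons from the flavoprotein to ubiquinone, had the highest M of the 37 genes. It read 12.28, 11.85 and 12.11 on disomic arrays 1 to 3, and 12.35, 12.40 and 12.66 on Ts1Cje arrays 1 to 3. The groups did not overlap, but the gap between the highest disomic and the lowest Ts1Cje value was smaller than the spread of the disomic arrays, and M was 0.39 ± 0.15 (SE, n = 3 per genotype, moderated t = 2.58). Sdhc and Sdhd, which anchor the enzyme in the membrane, gave M = 0.10 and -0.04. Sdhc read 11.00, 10.57 and 10.60 against 10.43, 10.96 and 11.08, and Sdhd 10.93, 10.69 and 10.72 against 10.74, 10.71 and 10.79. The groups overlapped for both. With single arrays left out, M ran from -0.031 (without Ts1Cje replicate 3) to 0.30 (without Ts1Cje replicate 1) for Sdhc, and from -0.078 (without disomic replicate 2) to 0.040 (without disomic replicate 1) for Sdhd, so the sign of each turned. Sdha, the flavoprotein that binds succinate, gave M = -0.02 and 0.08 on its 2 expressed probe sets.

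In complex III, Uqcrb, a small subunit close to the ubiquinone site, had the highest moderated t of all members. Its brightest probe set read 14.22, 14.16 and 14.13 on the disomic arrays and 14.35, 14.34 and 14.39 on the Ts1Cje arrays. The genotypes were apart, with a spread within each that was small beside the difference, and M was 0.19 ± 0.03 (SE, moderated t = 6.57, adjusted p = 1, 95% interval 0.11 to 0.26). The moderated t stayed above 4 in 10 of 11 fits and was 3.96 where the prior variance followed intensity. The other Uqcrb probe set read 12.48, 12.82 and 12.54 against 12.61, 12.51 and 12.65, with M = -0.02, so the difference was seen on 1 probe set only. Uqcrfs1, the Rieske iron-sulfur protein, read 12.53, 12.27 and 12.31 against 12.48, 12.55 and 12.59 (M = 0.17 ± 0.08, SE). Uqcr10, a small subunit, read 7.33, 7.20 and 7.29 against 7.31, 7.50 and 7.78 (M = 0.25 ± 0.14, SE, and 0.13 without Ts1Cje replicate 3). Both overlapped between the groups, Uqcrfs1 through disomic replicate 1 and Uqcr10 through Ts1Cje replicate 1.

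The remaining genes of complex III overlapped between the genotypes. The core proteins gave M = 0.07 for Uqcrc1 and 0.09 for Uqcrc2, the hinge protein Uqcrh 0.15, and the small subunits Uqcrq and Uqcr11 0.17 and 0.11. Cyc1, the cytochrome c1 that hands electrons to cytochrome c, was the only gene of the complex below 0 (M = -0.04). Its highest value, 13.20, was on disomic replicate 1, against 12.48 to 12.86 on the other 5 arrays. Cycs itself read 13.53, 13.40 and 13.43 on the disomic arrays and 13.74, 13.37 and 13.78 on the Ts1Cje arrays (M = 0.18 ± 0.13, SE). Ts1Cje replicate 2 was the lowest array for it, and M was 0.30 without that array and 0.10 without Ts1Cje replicate 3. The other expressed probe sets of Cycs gave M = -0.03 and 0.30.

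In complex IV, Cox5b, a nuclear-encoded subunit that binds zinc, was lower in Ts1Cje, as was Cox7c, while the other 8 genes of the complex had M above 0. Its 5 expressed probe sets all had M below 0, from -0.29 to -0.13. The brightest read 13.51, 13.36 and 13.34 on the disomic arrays and 13.26, 13.17 and 13.29 on the Ts1Cje arrays (M = -0.16 ± 0.06, SE, moderated t = -2.66). A further probe set read 13.29, 13.35 and 13.26 against 12.93, 13.01 and 13.10, with M = -0.29 ± 0.05 (SE, moderated t = -5.25, adjusted p = 1). The groups did not overlap on either. On the latter the moderated t was below -4 in 11 of 11 fits, and the sign did not rest on Ts1Cje replicate 3, without which M was -0.33. The names of both of these probe sets end in _x_at, which marks probes that may bind other transcripts. A probe set without that ending read 12.32, 12.25 and 12.10 against 12.07, 11.81 and 11.98, also with no overlap (M = -0.27 ± 0.10, SE).

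**Figure D3:**
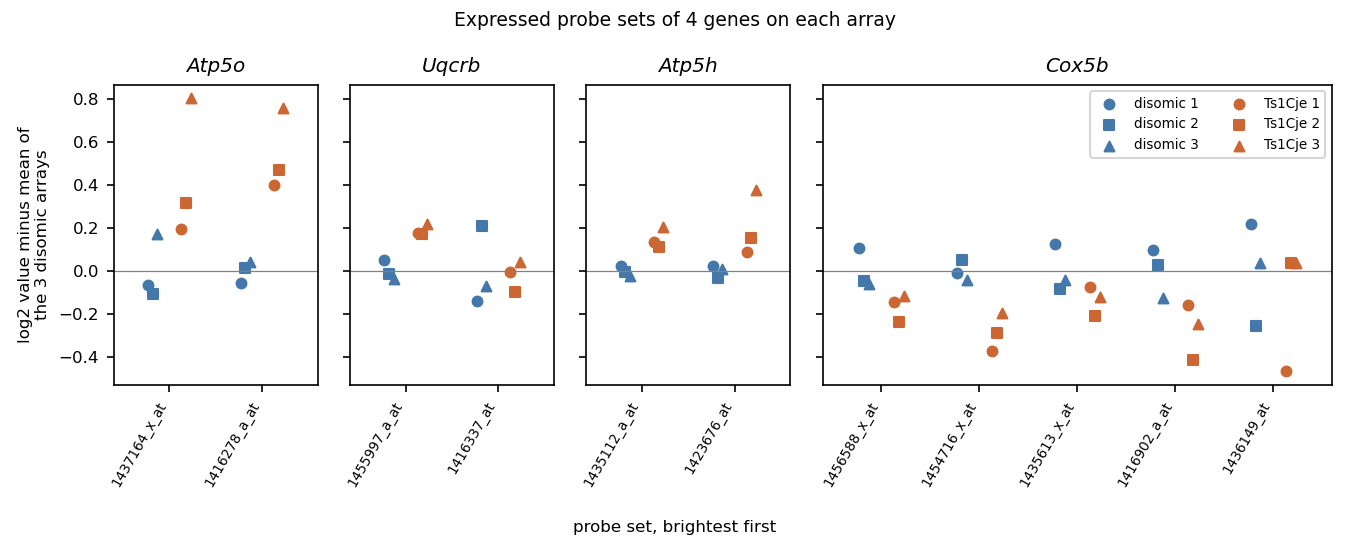
Log2 value of each expressed probe set of Atp5o, Uqcrb, Atp5h and Cox5b on each array minus the mean of the 3 disomic arrays, with probe sets ordered from the brightest. Both Atp5o probe sets lie higher in Ts1Cje, the second Uqcrb probe set shows no separation, and all 5 Cox5b probe sets have a lower mean in Ts1Cje.

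Cox7c, a small subunit of complex IV, had the lowest M of all members, on a dim probe set (A = 7.32). The name of that probe set ends in _s_at, the mark of probes that several transcripts may share. Cox7c read 7.65, 7.48 and 7.57 on the disomic arrays and 7.54, 6.74 and 6.96 on the Ts1Cje arrays, with M = -0.49 ± 0.24 (SE). Ts1Cje replicates 2 and 3 were low and replicate 1 lay among the disomic arrays. Its dimmer probe set gave M = -1.0 ± 0.58 (SE), while the brighter one had M = -0.31 without Ts1Cje replicate 2, and without Ts1Cje replicate 1 it had M = -0.72 and a moderated t of -7.25. Cox6b1, a subunit on the side of the intermembrane space, ran upward without overlap, at 14.16, 14.06 and 14.11 against 14.19, 14.24 and 14.42 (M = 0.18 ± 0.07, SE, and 0.11 without Ts1Cje replicate 3). Cox7a2 was also free of overlap (M = 0.27 ± 0.13, SE). Cox8a, Cox5a, Cox6a1, Cox7a2l, Cox6c and Cox4i1 gave M between 0.06 and 0.22, and their groups overlapped.

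In complex V, Atp5o was higher in Ts1Cje on both of its probe sets. The brighter read 12.07, 12.03 and 12.31 on the disomic arrays and 12.33, 12.45 and 12.94 on the Ts1Cje arrays, with M = 0.44 ± 0.20 (SE, moderated t = 2.22, 95% interval -0.09 to 0.97). The dimmer read 11.95, 12.02 and 12.05 against 12.40, 12.47 and 12.76, with M = 0.54 ± 0.11 (SE, moderated t = 4.97, adjusted p = 1, 95% interval 0.25 to 0.83), a fold of 1.46. No Ts1Cje value overlapped a disomic one on either probe set, and the exact two-sided permutation test gave p = 0.1 for each, the smallest that 3 against 3 arrays allow. The intervals of both probe sets include 0.58, the log2 of 3 copies over 2, and that of the brighter one also includes no difference. The name of the brighter one ends in _x_at, the mark of probes that may bind other transcripts. Without Ts1Cje replicate 3, M was 0.26 on the brighter and 0.43 on the dimmer probe set, and without disomic replicate 1 or 2 the moderated t of the dimmer one was 3.81 or 3.96.

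The other 43 expressed trisomic genes had a median M of 0.54, with quartiles of 0.35 and 0.67, and 28 of them lay above the 0.44 of the brighter Atp5o probe set. The M of the dimmer Atp5o probe set, 0.54, was close to that median. Atp5j, its disomic partner in the stalk and on the same chromosome, read 12.38, 12.37 and 12.36 on the disomic arrays and 12.44, 12.36 and 12.70 on the Ts1Cje arrays (M = 0.13 ± 0.10, SE). Ts1Cje replicate 3 stood clear of the disomic arrays for Atp5j, while replicate 1 lay just above them and replicate 2 level with the lowest, and M was 0.030 without replicate 3 and 0.20 without replicate 2. Since the other subunits were high on that array too, Atp5o was also compared with them. Its brighter probe set was set against the mean of the 13 disomic genes of complex V on the same array. Relative to the disomic mean, the difference between them was -0.10, -0.02 and 0.12 on the disomic arrays and 0.18, 0.21 and 0.39 on the Ts1Cje arrays. The groups did not overlap, and Atp5o was above its partners by 0.26 ± 0.11 (SD, n = 3) on average in Ts1Cje.

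Atp5h, the d subunit of the stator stalk, was higher in Ts1Cje on both probe sets with no overlap. The brighter read 14.32, 14.29 and 14.27 on the disomic arrays and 14.43, 14.41 and 14.50 on the Ts1Cje arrays, with M = 0.15 ± 0.03 (SE, moderated t = 5.0, adjusted p = 1, 95% interval 0.07 to 0.23). The dimmer read 11.03, 10.97 and 11.01 against 11.09, 11.16 and 11.38, with M = 0.20 ± 0.09 (SE). Without Ts1Cje replicate 3 the M of the brighter probe set was 0.12 and its moderated t was 6.52, so this small difference did not need that array. The moderated t was above 4 in 7 of 11 fits, and the lowest was 3.04.

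In the F1 head, Atp5c1, the gamma subunit that forms the rotating shaft, read 13.52, 13.33 and 13.52 on the disomic arrays and 13.70, 13.61 and 13.93 on the Ts1Cje arrays, again without overlap (M = 0.29 ± 0.11, SE). The name of this probe set also ends in _s_at. The dimmer probe set of Atp5c1 gave M = 0.54 ± 0.45 (SE) with overlap. Atp5a1 and Atp5b, the alpha and beta subunits that hold the nucleotide sites, gave M = 0.05 and -0.05, and both were highest on disomic replicate 1. The 3 probe sets of Atp5a1 ran from -0.04 to 0.36. The central stalk subunits Atp5d and Atp5e gave M = 0.32 ± 0.28 and 0.23 ± 0.21 (SE). Atp5d thus had a larger M than Atp5h and an error about as large as the difference.

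Atp5g1, Atp5g2 and Atp5g3 encode the same mature c subunit of the membrane ring, with different targeting peptides. They gave M = 0.20 ± 0.28, 0.22 ± 0.30 and 0.07 ± 0.09 (SE), each with overlap between the genotypes and each highest on Ts1Cje replicate 3. For Atp5g1 that array read 9.85 while Ts1Cje replicates 1 and 2 read 9.06 and 9.19 and the disomic arrays 9.45, 8.89 and 9.15. The small membrane subunits Atp5l, Atp5k and Atp5j2 gave M = 0.30, 0.29 and 0.12, also with overlap. Atp5pb, the RefSeq name of the listed Atp5f1, gave M = -0.04 and -0.09 on its 2 probe sets.

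**Figure D4:**
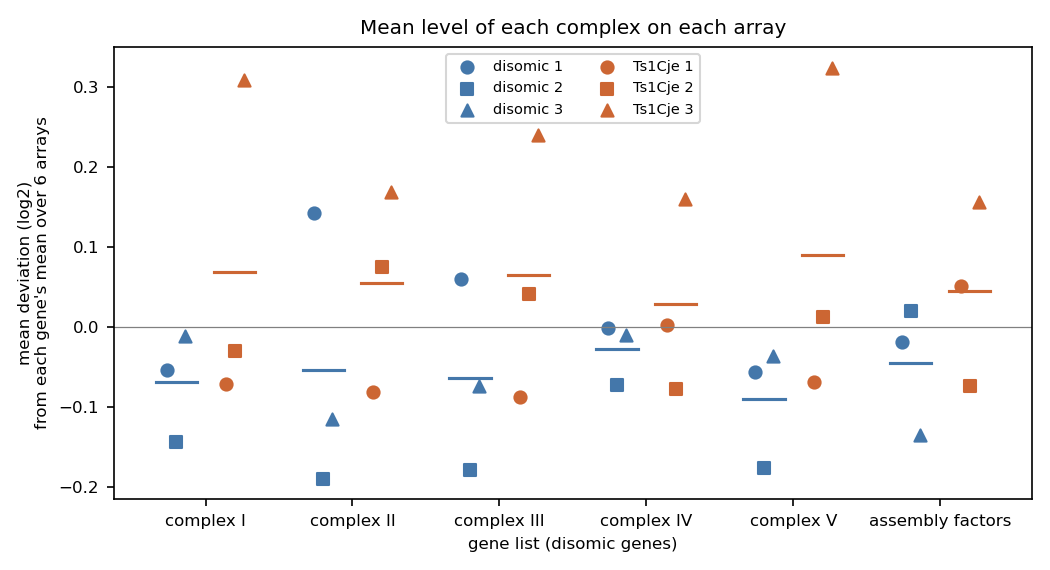
Mean deviation on the log2 scale of the disomic genes of each complex, and of assembly factors, from each gene's mean over the 6 arrays. Points are arrays (colour for genotype, shape for replicate) and lines are group means, and Ts1Cje replicate 3 is the highest array in every list while the other Ts1Cje arrays lie among the disomic ones or close to them.

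Probe sets of the same gene mostly ran the same way. Of the 24 genes with more than 1 expressed probe set, 16 had all of them above 0, 3 (Sdhd, Cox5b and Cox7c) had all below 0, and 5 had both signs. M differed by more than 0.3 between probe sets of Cycs, Cox7c and Atp5a1. The probe sets of Uqcrb and Atp5h with a moderated t past 4 lie at A = 14.27 and 14.37 and whether their intensities were compressed was not tested.

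Outside the list, Ts1Cje replicate 3 was also the highest array for complex I and for assembly factors. Of complex I, which takes electrons from NADH, 28 of 32 expressed genes were above 0 with a median M of 0.16, and its mean deviation was -0.05, -0.14 and -0.01 on the disomic arrays and -0.07, -0.03 and 0.31 on the Ts1Cje arrays. Assembly factors, which insert hemes and copper or chaperone subunits, had 27 of 33 above 0 and a median M of 0.10. Their mean deviation was -0.02, 0.02 and -0.13 on the disomic arrays and 0.05, -0.07 and 0.16 on the Ts1Cje arrays. The order of the other arrays thus differed from that of the members, for which disomic replicate 2 was the lowest. Regulators of mitochondrial genes had 8 of 18 above 0 and a median M of -0.07. Among them Nrf1, Gabpa and Yy1, named here because their motifs were searched, gave M = -0.08, -0.20 and -0.09 with overlap. None of these lists held a probe set with a moderated t past 4 in either direction. Of the genes of mitochondrial DNA, only ND5 had a probe set with a single symbol, at M = 0.02 ± 0.12 (SE). Atpif1, the inhibitor of ATP synthase, gave M = -0.27 ± 0.17 (SE) with overlap, and Ndufa4, now counted as a subunit of complex IV, M = 0.14 ± 0.06 (SE) without overlap.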

How the data were processed

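The authors extracted RNA from neurospheres of 3 Ts1Cje and 3 disomic mice, labelled it in 2 cycles and hybridised it to Affymetrix mouse genome arrays. The authors deposited log2 values, 1 per probe set, which they made with gcRMA (background from base composition, normalization between arrays), with no version given in the sources used here. All 6 arrays were used. Linear models with genotype as the only term were fitted to 45037 probe sets, without 64 controls, by lmFit and eBayes in limma 3.58.1 (R 4.3.3), two-sided, with Benjamini-Hochberg adjustment over all. The prior degrees of freedom were 0.336, so each probe set was judged mostly by its own spread. Gene symbols came from the platform annotation, chromosomes from RefSeq. Of the probe sets, 34945 had 1 symbol, 932 several and 9160 none. With 6 arrays, precision is limited by their number. The limma fit was tested on simulated data with independent noise and with differences larger than those of most members. Differences as small as the members' were not simulated. All member genes could be named. Values of every array were given for Atp5o, Atp5j, Cycs, the 3 genes of each complex with the largest moderated t and every member probe set past a moderated t of 4. Of the other lists, members past that t were named, and a few other genes and probe sets (Cyc1, Atp5g1, Nrf1, Gabpa, Yy1, ND5, Atpif1, Ndufa4, the second probe sets of Uqcrb, Cox5b, Atp5h and Atp5o) were added after their values were seen. The members and lists were chosen with earlier results of these data known. Alternatives were other levels of A, array weights, cyclic loess, an intensity trend in the prior variance, other probe sets per gene, the replicate number as a block and leaving out each array.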

Additional observations from a re-analysis of the deposited data

How the results depend on the processing

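The median M of complex II, 0.04 and without a test, changed sign without Ts1Cje replicate 3 (-0.02), disomic replicate 2 (-0.02) or disomic replicate 3 (-0.01). The count of member probe sets with a moderated t above 4, 3 in the reported fit, was 1 with a prior variance that follows intensity and 1 to 9 when single arrays were left out. The count below -4, 1 in the reported fit, was 1 to 2 when single arrays were left out and 0 without probe sets whose names end in _s_at or _x_at, under which the count of probe sets lower without overlap was 1 in place of 3. M reversed for Sdhc without Ts1Cje replicate 3 (-0.031, highest 0.299 without Ts1Cje replicate 1) and for Sdhd without disomic replicate 1 (0.040, lowest -0.078 without disomic replicate 2). With the replicate number as a block, 5 probe sets passed a moderated t of 4 and 2 passed -4, and no other call changed. Those added were the brighter probe sets of Atp5o (moderated t = 4.48) and Atp5c1 (4.53), and a further probe set of Cox5b (-4.16). The counts in these other fits are given without a share over all expressed probe sets. The authors describe the cultures as 3 pairs of littermates, but the labels do not say whether the replicate number marks a pair. Deviations of same-numbered samples correlated at -0.17, -0.03 and 0.13. No Ts1Cje sample correlated best with the disomic sample of its own number. Of the disomic samples, only replicate 3 correlated best with the Ts1Cje sample of its number. The deviations within a group are tied to each other by the group mean, so this check cannot exclude pairs. The numbers were not taken as pairs in the reported fit. Other normalization or weighting moved the median M of all expressed probe sets by less than 0.01, and causes of these changes were not tested. With 3 arrays per genotype, differences such as those described here could not be told from the spread by an adjusted p.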
